A study of Mus musculus with 8 samples.

Results

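The genes described here are the EGF receptor genes, the ligands of these receptors and the inhibitors that act on them. They were chosen by gene symbol in the platform annotation. The set names 10 genes, Egfr, Erbb2, Erbb3, Hbegf, Areg, Ereg, Btc, Tgfa, Errfi1 and Lrig1, of which 7 had a probe in the deposited intensity table, with 11 of its 25697 probes in all. Erbb2, Erbb3 and Areg were not analysed here. All samples were primary vascular smooth muscle cells, taken from carotid arteries of male C57bl6 mice that lack PMCA4, a calcium pump of the plasma membrane. In the rescued group (4 arrays) the knockout cells had received PMCA4a cDNA, a splice form of the pump, by electroporation. In the knockout group (4 arrays) they had not. Both were synchronized by serum, then given serum with the growth factor PDGF-BB, and were collected in late G1/S, and total RNA was read on an Illumina bead array. The labels give neither the age of the mice nor whether replicates are separate cultures, so a p-value here speaks for the spread among these arrays, which may be technical. No knockout cells electroporated without PMCA4a were analysed here, so electroporation and PMCA4a cannot be told apart.

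The EGF receptor is a receptor tyrosine kinase. Its ligands are made as membrane-anchored precursors that metalloproteinases cut free, and a bound ligand brings receptor molecules into pairs, which then signal through RAS and ERK. Active receptors are taken into the cell and degraded, and signalling also induces inhibitors of the receptor itself. In vascular smooth muscle the heparin-binding ligand HB-EGF is known as a mitogen.

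The deposited intensities were background-corrected and normalized to a log2 scale, and differences are rescued minus knockout, with p-values from limma adjusted by Benjamini-Hochberg over the 12658 probes tested. Of the 11 member probes, 8 probes of 5 genes were tested. Of these, 4 were higher in rescued cells, 2 were lower and 2 did not pass the threshold of 0.05. All 4 higher probes were of the single gene Egfr, so the probes do not count separate genes. By gene, Egfr was higher, Errfi1 and Lrig1 were lower, and Hbegf and Btc did not pass. Over all 8633 genes tested, 21.0% were higher and 18.9% lower. Over all probes tested, 38.8% passed, 20.0% higher and 18.7% lower. Rescued and knockout arrays were fully separated at 6 of the 8 probes, 4 of them of Egfr, beside 38.8% of all probes tested. The probe-by-probe plot shows the separation of Egfr, Errfi1 and Lrig1 and the split among the rescued arrays at Hbegf.

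**Figure D1:**
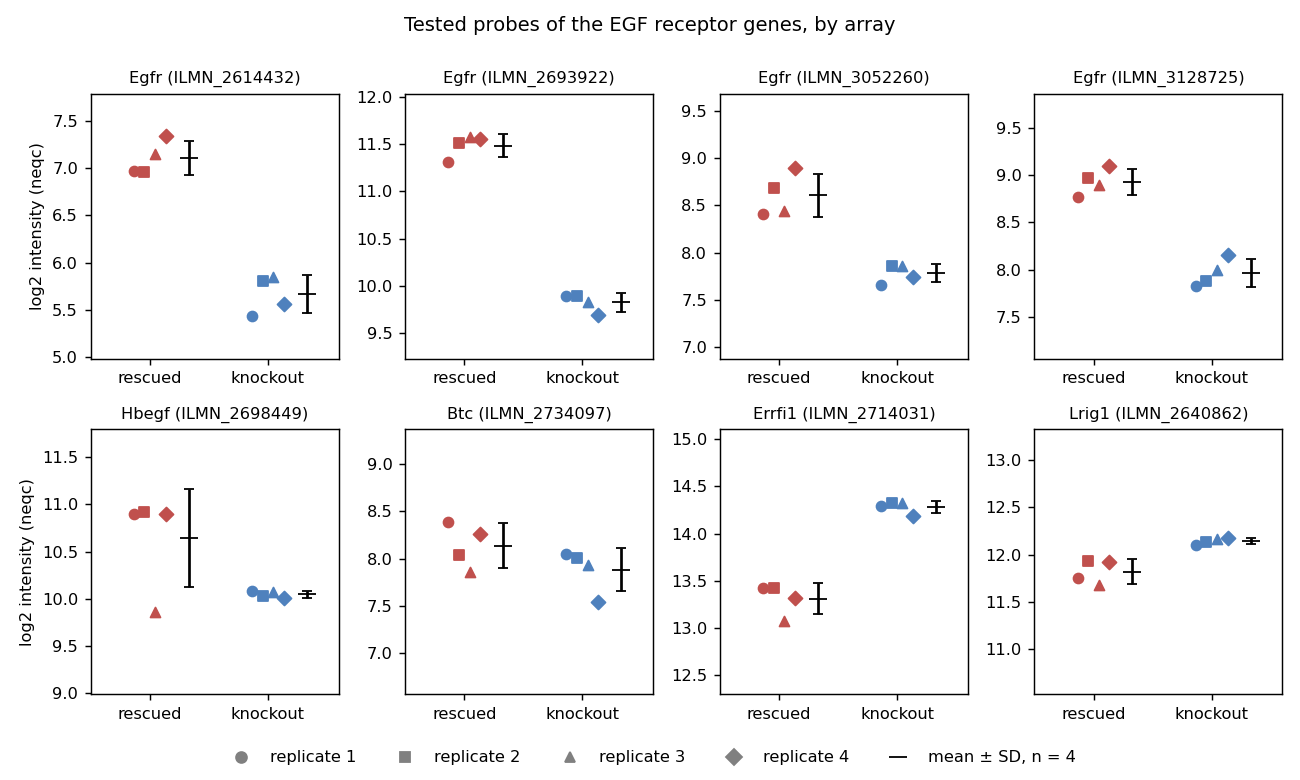
Log2 intensity (neqc-normalized) of the 8 tested probes on each array, with rescued arrays in red, knockout arrays in blue, a symbol for each replicate number, and the mean ± SD of 4 arrays in black. Each panel spans the same width on the log2 scale. All 4 Egfr probes lie higher on every rescued array than on any knockout array, Errfi1 and Lrig1 lie lower, and Hbegf on rescued replicate 3 lies at 9.87, below the knockout arrays.

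The genes that passed were the receptor gene Egfr and the inhibitor genes Errfi1 and Lrig1, and their promoter windows are shown because these are the members that moved. The windows are 250 bases before and 50 bases after an annotated start, from RefSeq on build GRCm38.p6, and 7 of the 10 genes had one. Capitals mark matches, on either strand, to the GC box GGGCGG, the TATA box TATAAA, the cyclic AMP response element TGACGTCA, the AP-1 element TGANTCA or the CCAAT box CCAAT.
Egfr, chr11:16751953-16752252, plus strand: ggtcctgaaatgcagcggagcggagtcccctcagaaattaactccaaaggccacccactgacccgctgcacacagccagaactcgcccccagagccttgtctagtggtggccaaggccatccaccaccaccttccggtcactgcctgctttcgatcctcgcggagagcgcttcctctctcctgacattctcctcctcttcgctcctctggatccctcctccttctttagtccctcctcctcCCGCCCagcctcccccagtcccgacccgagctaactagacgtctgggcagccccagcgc
Errfi1, chr4:150854820-150855119, plus strand: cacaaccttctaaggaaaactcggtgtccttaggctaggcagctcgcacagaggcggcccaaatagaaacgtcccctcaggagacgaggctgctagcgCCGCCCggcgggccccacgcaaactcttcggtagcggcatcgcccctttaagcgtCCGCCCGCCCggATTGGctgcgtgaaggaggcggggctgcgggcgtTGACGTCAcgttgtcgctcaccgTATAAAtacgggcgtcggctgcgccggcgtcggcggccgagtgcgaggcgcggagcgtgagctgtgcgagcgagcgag
Lrig1, chr6:94700096-94700395, minus strand: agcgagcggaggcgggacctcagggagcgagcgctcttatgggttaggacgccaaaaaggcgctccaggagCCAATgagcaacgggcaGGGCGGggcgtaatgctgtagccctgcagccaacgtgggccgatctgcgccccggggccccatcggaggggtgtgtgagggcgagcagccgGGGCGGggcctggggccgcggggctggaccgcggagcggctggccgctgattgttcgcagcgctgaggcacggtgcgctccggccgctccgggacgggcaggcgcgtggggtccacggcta
The Egfr window held 1 GC box and none of the other motifs. The Errfi1 window held 3 GC boxes, 2 of them overlapping, with 1 CCAAT box, 1 cyclic AMP response element and 1 TATA box. A second Errfi1 window, at an annotated start upstream of this one, matched none. The Lrig1 window held 2 GC boxes and 1 CCAAT box. Of 32851 windows of the same length, 35.7% held the GC box, 37.4% the CCAAT box, 13.6% the TATA box, 7.81% the AP-1 element and 1.79% the cyclic AMP response element. These matches are letters in a window and were not tested as sites.

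Egfr, which encodes the EGF receptor, was higher in rescued cells at each of its 4 probes. At its brightest probe (ILMN_2693922) the log2 intensity was 11.31, 11.51, 11.57 and 11.55 on the rescued arrays, against 9.89, 9.90, 9.83 and 9.69 on the knockout arrays. The groups were 3.16-fold apart (log2 difference 1.66, 95% interval 1.47 to 1.85, limma adjusted p = 9.55e-07). Only 2.04% of tested probes differed by as much or more in either direction. The dimmest probe (ILMN_2614432) read 6.97, 6.96, 7.16 and 7.34 in rescued cells, against 5.43, 5.81, 5.85 and 5.57 in knockout cells. It was detected on all 8 arrays and rose by 1.44 (limma adjusted p = 2.56e-05), or by 0.67 without background correction. The other probes averaged 8.61 ± 0.23 on rescued arrays and 7.78 ± 0.10 on knockout arrays (ILMN_3052260, SD, n = 4 each), and 8.93 ± 0.14 on rescued arrays and 7.96 ± 0.15 on knockout arrays (ILMN_3128725). They rose by 0.83 and 0.97 (limma adjusted p = 0.000488 and 7.65e-05). In such bulk samples, more cells with a transcript and more of it per cell cannot be told apart.

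The 4 Egfr probes did not rise by the same amount. The platform assigns ILMN_2693922 and ILMN_2614432 to NM_207655, which encodes the full-length receptor, and the other 2 to NM_007912, a shorter transcript whose product lacks the kinase domain. The probes' sequences were not analysed here, so which exons each one reads is not shown. Within each array, the mean log2 intensity of the first pair minus that of the second was 0.55, 0.41, 0.70 and 0.45 on rescued arrays, against -0.08, -0.02, -0.09 and -0.32 on knockout arrays. The value itself depends on how bright each probe is, and only its difference between groups is read: it was 0.65, the gap between the rises of the pairs. The groups did not overlap, and the two-sided exact permutation test gave p = 0.0286, its lower limit for groups of 4. The comparison was chosen after its values were seen. The size of the rises did not sort by transcript without background correction: ILMN_2693922 rose by 1.56, but the dim ILMN_2614432 by 0.67, between ILMN_3128725 at 0.76 and ILMN_3052260 at 0.62. The gap was then 0.43, with ILMN_2693922 alone above the other 3 probes.

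**Figure D2:**
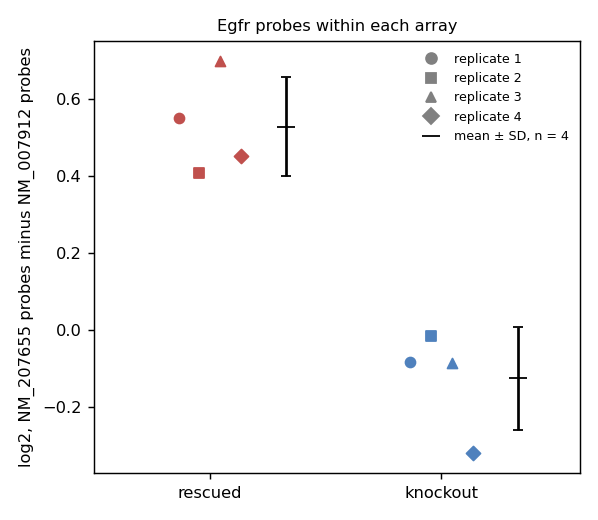
Mean log2 intensity of the 2 Egfr probes annotated to NM_207655 minus that of the 2 annotated to NM_007912, for each rescued (red) and knockout (blue) array, with the mean ± SD of 4 arrays in black. Rescued arrays lie between 0.41 and 0.70 and knockout arrays between -0.32 and -0.02.

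The tested genes other than the members whose pattern over the 8 arrays lay nearest to that of Egfr, among 8628 genes, were Fzd6, Smoc1 and Smpdl3b. The measure was the root mean square difference of log2 values after centring each gene on its own mean, and it was 0.131, 0.135 and 0.145. Fzd6 encodes a Wnt receptor, Smoc1 a secreted calcium-binding matrix protein and Smpdl3b a sphingomyelinase-like enzyme. They were higher in rescued cells by 1.598, 1.82 and 1.48 on the log2 scale. Rises close to that of Egfr follow from choosing the genes by this likeness on the same arrays.

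Among the ligands, Hbegf, which encodes HB-EGF, was bright and divided the rescued arrays. Its log2 intensity was 10.90, 10.92 and 10.90 on rescued replicates 1, 2 and 4 and 9.87 on rescued replicate 3, against 10.08, 10.03, 10.07 and 10.01 on the knockout arrays. Rescued replicates 1, 2 and 4 lay above all knockout arrays and rescued replicate 3 below all of them. Over all arrays the difference was 0.60 (95% interval 0.11 to 1.09), and it did not pass (limma adjusted p = 0.0531). Without rescued replicate 3 it was 0.86 (limma adjusted p = 1.36e-05). That array stood apart in markers of adventitial fibroblasts: their summed background-corrected intensity was 17008 on it and from 3573 to 4835 on the other rescued arrays, against 12693 to 14147 on knockout arrays. Of 8 tested adventitial markers, 0 were higher and 4 lower in rescued cells, and of the 9 on the array Lum was not detected on any. Their part in the Hbegf values was not tested.

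**Figure D3:**
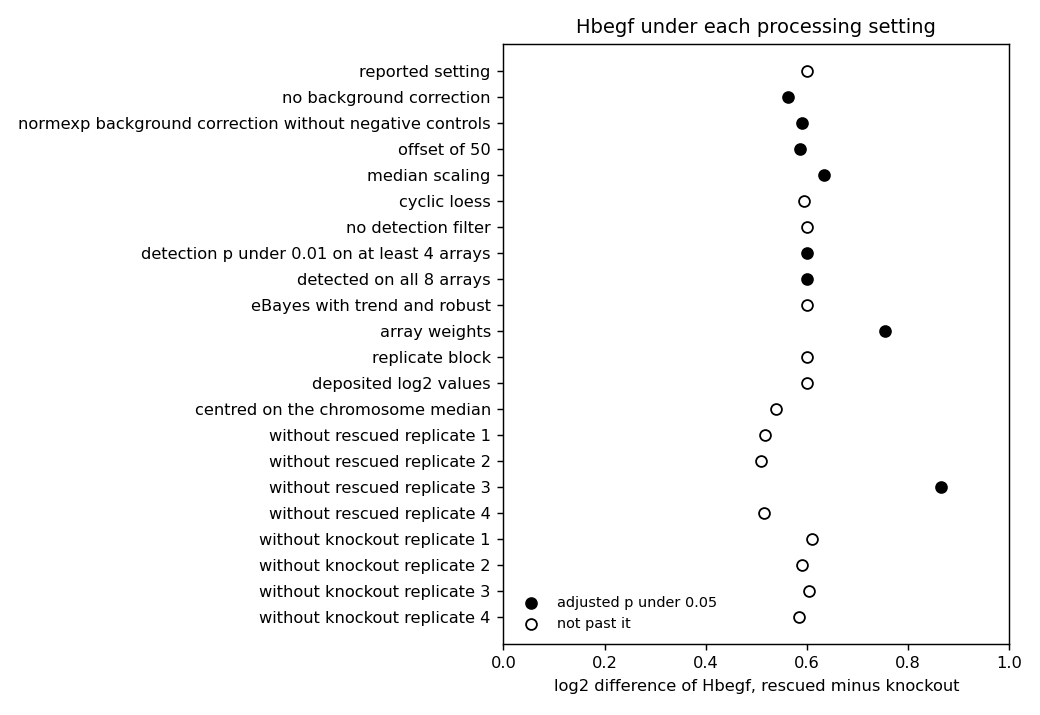
Log2 difference of Hbegf, rescued minus knockout, under the reported setting and 21 alternatives, filled where the adjusted p was under 0.05. The difference stays between 0.51 and 0.86, and it is largest without rescued replicate 3.

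Btc, which encodes betacellulin, a ligand of the EGF receptor and ErbB4, was detected on every array. It stood at 8.39, 8.03, 7.86 and 8.26 in rescued cells, against 8.05, 8.002, 7.93 and 7.54 in knockout cells. The groups overlapped, and the difference of 0.25 (95% interval -0.07 to 0.58) did not pass (limma adjusted p = 0.192). Tgfa, which encodes transforming growth factor alpha, was detected on 1 rescued and 1 knockout array, and averaged 5.01 ± 0.12 on rescued arrays, against 5.16 ± 0.15 on knockout arrays (SD, n = 4 each). Ereg, which encodes epiregulin, was not detected on any array at either of its 2 probes. Their levels in rescued cells were 4.70 ± 0.12 and 4.67 ± 0.10, against 4.81 ± 0.09 and 4.74 ± 0.20 in knockout cells (SD, n = 4 each). The lowest level among detected probes was 5.17 to 5.34 per array, so Ereg and Tgfa were not well above background and were not tested.

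Both inhibitor genes were lower in rescued cells. Errfi1 encodes a cytoplasmic protein, also called Mig-6, that binds the receptor's kinase domain and blocks it. Its log2 intensity was 13.42, 13.43, 13.08 and 13.32 on rescued arrays, against 14.29, 14.32, 14.33 and 14.18 on knockout arrays. Every rescued array lay below every knockout array, and Errfi1 was 1.96-fold lower in rescued cells (log2 difference -0.97, 95% interval -1.17 to -0.77, limma adjusted p = 4.70e-05). Its deposited intensities, 9051 to 11154 in rescued and 16888 to 22355 in knockout cells, were below the 61011 to 65109 units of the brightest probes. Lrig1 encodes a transmembrane protein that promotes degradation of the receptor. It read 11.75, 11.93, 11.67 and 11.92 in rescued cells, against 12.10, 12.13, 12.17 and 12.18 in knockout cells. The groups did not overlap, but the difference was small, 1.25-fold lower in rescued cells (log2 difference -0.32, 95% interval -0.50 to -0.15, limma adjusted p = 0.00903). Of all tested probes, 33.7% differed by as much or more in either direction.

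**Figure D4:**
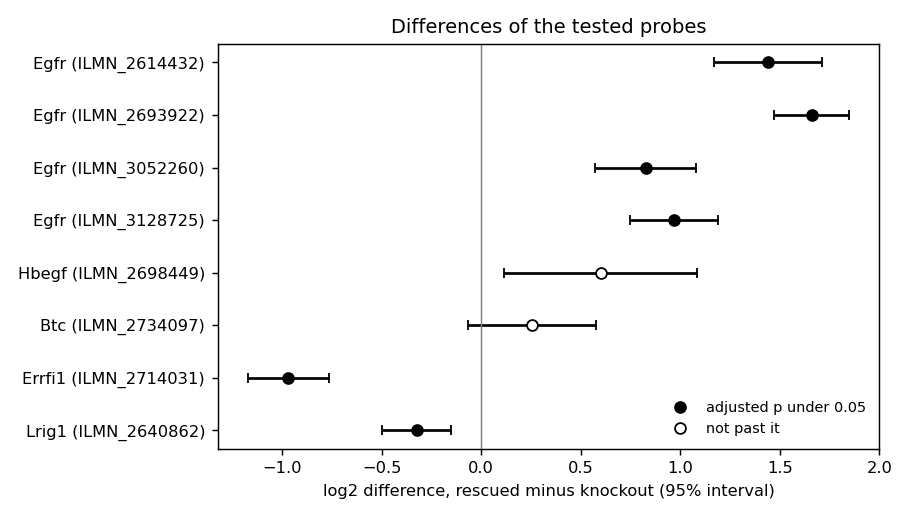
Log2 difference, rescued minus knockout, of each tested probe with its 95% interval from limma, filled where the adjusted p was under 0.05. The 4 Egfr probes lie between 0.83 and 1.66, Errfi1 at -0.97 and Lrig1 at -0.32, and the points of Hbegf and Btc are open.

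Other genes of the pathway were described from 5 lists, with each gene at its brightest tested probe. Of 8633 genes tested, 39.9% passed, 21.0% higher and 18.9% lower, and the median difference of all genes was 0.01. Of the remaining ErbB receptors and ligands, 2 were tested and both passed. Nrg1, which encodes neuregulin 1, a ligand of ErbB3 and ErbB4, read 8.41, 8.34, 9.93 and 8.39 in rescued cells, against 7.70, 7.63, 7.37 and 7.53 in knockout cells. All rescued arrays were higher, with rescued replicate 3 far above the others, and the rise of 1.21 (limma adjusted p = 0.0150) was 0.82 without that array (limma adjusted p = 0.000156). Epgn, which encodes the EGF receptor ligand epigen, read 6.09, 6.28, 5.22 and 6.20 in rescued cells, against 6.999, 6.90, 6.62 and 7.27 in knockout cells. It fell by 1.00 (limma adjusted p = 0.00759), and by 0.47 without background correction. Hbegf and Epgn were thus lowest, and Nrg1 highest, on rescued replicate 3.

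Genes for the shedding and maturation of ligands were mostly lower. Of 11 tested, 8 fell, 0 rose and 3 missed the threshold, with a median difference of -0.36, beside 18.9% lower and a median of 0.01 over all genes. The count of falls was 6 under median scaling or chromosome centring, and 7 with the probes of each gene averaged. It was 2 when a change of at least 1.5-fold was also required, so most of these falls were small. Adam17, the main sheddase of several EGF receptor ligands, fell to 8.98 ± 0.25 in rescued cells, against 9.63 ± 0.15 in knockout cells (SD, n = 4 each, limma adjusted p = 0.00337). It is named for that role, outside the rule for named genes and after its values were seen. Adam19, another metalloproteinase, fell by 0.81 and the tetraspanin gene Tspan14 by 0.53. Timp3, which encodes a metalloproteinase inhibitor, fell by 0.47 (a second probe differed by -0.90), and the protease gene Nrd1 by 0.36, and centring each chromosome ended the call of Nrd1 (-0.17, limma adjusted p = 0.0514). The list therefore holds both proteases and an inhibitor among the genes that fell.

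Genes of the relay from the receptor were called about as often as all genes. Of 20 adaptors and RAS-ERK relay genes tested, 2 rose, 6 fell and 12 missed the threshold, and the median was -0.04. Over all genes tested, 39.9% passed, 21.0% higher and 18.9% lower, with a median of 0.01. The adaptor gene Shc1 fell by 0.41, the kinase gene Src by 0.57, Araf by 0.42 and the GTPase gene Rras by 0.35. With each chromosome centred on its median, the difference of Shc1 was -0.23 (limma adjusted p = 0.0183). A second Src probe differed by -0.15. The count of rises ran from 0 to 4 over the alternatives, and was 0 without knockout replicate 1, 3 or 4 and 1 without rescued replicate 1 or knockout replicate 2. Of 18 endocytosis and degradation genes tested, 1 rose, 7 fell and 10 missed the threshold, and the median was -0.18. These counts stand beside the same 39.9% of all genes that passed. The endocytic adaptor gene Eps15 fell by 0.68, Sh3kbp1, a partner of the ubiquitin ligase CBL, by 0.51 and Ap2m1, a subunit of the clathrin adaptor AP-2, by 0.34, while the epsin gene Epn2 rose by 0.46. The count of falls was 4 without rescued replicate 2 or knockout replicate 4.

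Of 14 other feedback inhibitors of receptor signalling tested, 2 rose, 2 fell and 10 missed the threshold, and the median was 0.07. Over all genes tested, 39.9% passed, 21.0% higher and 18.9% lower. Socs3, a suppressor of cytokine signalling, read 8.98, 8.99, 9.74 and 9.28 in rescued cells, against 10.76, 10.72, 10.77 and 10.74 in knockout cells. It fell by 1.498 (limma adjusted p = 8.12e-05), with every rescued array below the knockout arrays. Its relative Cish was higher on every rescued array, at 10.37 ± 0.06 on rescued arrays and 9.53 ± 0.08 on knockout arrays (SD, n = 4 each, limma adjusted p = 1.97e-05). The phosphatase gene Ptpn1 fell by 0.54, and Spred1, an inhibitor of the RAS pathway, rose by 0.46. Lrig3, a relative of Lrig1 named outside the rule and after its values were seen, differed by 0.00 (limma adjusted p = 0.985).

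**Figure D5:**
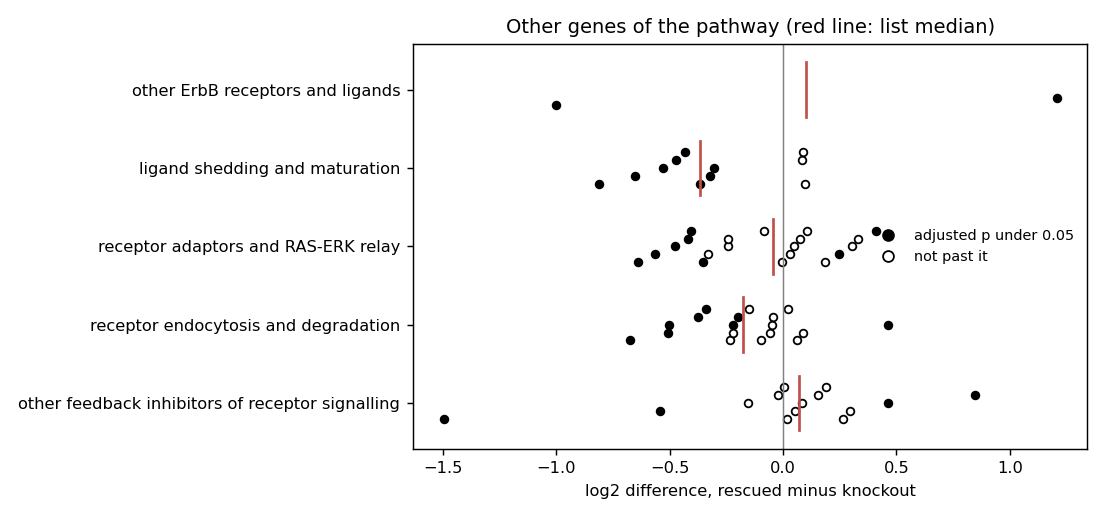
Log2 difference, rescued minus knockout, of each tested gene in 5 lists of the EGF receptor pathway, filled where the adjusted p was under 0.05, with the list median as a red line. The shedding list has its median at -0.36 and the other lists have medians between -0.18 and 0.10.

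Across the whole series, 12640 to 12873 probes were detected on rescued arrays, against 12223 to 12427 on knockout arrays. The targeted gene could not check the labels: Atp2b4, which encodes PMCA4, had 1 tested probe, dim and without a separation (difference 0.02, limma adjusted p = 0.911). Its remaining probes were not detected on any array, so no Atp2b4 probe showed a gain in rescued cells. Whether the probes lie in the deleted part, or read the introduced cDNA, was not analysed here. Of 10 smooth muscle markers on the array, 7 were tested and Cnn1 and Lmod1 were not detected on any array. Acta2, smooth muscle actin, read 15.83 on average in rescued cells, against 15.87 in knockout cells. Both values lie near the top of the intensity range of the arrays, where a difference may not show. Of the 7 tested, Tagln fell by 1.43 and Tpm2 by 0.66, and Smtn rose by 0.43. Cald1 (difference 0.13, limma adjusted p = 0.689) and Des (-0.04, limma adjusted p = 0.847) did not pass. The summed intensity of the list was 61202 to 68630 on rescued arrays, against 67751 to 72766 on knockout arrays. That sum includes the bright Acta2 and does not stand apart from it. Myocd, which encodes the smooth muscle coactivator myocardin, rose by 1.70 and was detected on 4 rescued arrays, against 1 knockout array. Myocd thus entered the test through the rescued arrays, and its knockout mean of 4.89 was near background. Of 9 epithelial markers on the array, a cell type rich in EGF receptor, 6 were not detected on any array and 2 were tested. Krt19, detected on 4 rescued arrays against 1 knockout array, was higher in rescued cells by 2.62. It entered the test through the rescued arrays, and its knockout mean of 5.06 was near background. Cdh1 did not pass (difference 0.25, limma adjusted p = 0.141). The summed intensity of the list was 179 to 382 on rescued arrays, against 98.7 to 117 on knockout arrays. The sum includes Krt19 and does not stand apart from it. The part of these markers in the Egfr result was not tested. Of 9 endothelial markers on the array, 4 were not detected on any array, 3 were tested and 2 were higher, Vwf and Nos3. Each was detected on 4 rescued arrays and 0 knockout arrays, so both entered the test only through the rescued arrays. They were dim, averaging 5.92 and 5.63 on rescued arrays, where the lowest level among detected probes was 5.17 to 5.34 per array. Kdr, also tested, differed by 0.01 (limma adjusted p = 0.967). The summed intensity of the list was 168 to 212 on rescued arrays, against 134 to 161 on knockout arrays. Of 7 leukocyte markers on the array, 5 were not detected on any array and 2 were tested. Lyz2, detected on 4 rescued arrays against 1 knockout array, was higher in rescued cells by 2.14. It too entered the test through the rescued arrays, with a knockout mean of 5.17, near background. Aif1 did not pass (difference -0.15, limma adjusted p = 0.436). The sum of the list was 191 to 250 on rescued arrays, against 92.2 to 117 on knockout arrays. This sum includes Lyz2 and does not stand apart from it. The part of the endothelial and leukocyte lists in the members' results was not tested.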

How the data were processed

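The authors deposited 1 intensity and 1 detection p-value per probe and array, with the intensity not normalized, per the file headers. The authors' second table, of log2 values, differed from the values computed here by at most 0.0266, with column medians of 5.17 to 5.18, so both share scale and direction, and no centring of probes was found. No source used here names the software behind these tables. Background correction used controls that neqc infers from the detection p-values, followed by quantile normalization (offset 16), in limma 3.58.1 under R 4.3.3. A probe was tested if its detection p was under 0.05 on 4 or more of the 8 arrays, with lmFit and eBayes, after the procedure was tested on simulated data. Precision is limited by the number of arrays. Symbols came from the platform annotation, updated through RefSeq (GRCm38.p6) by gene identifier, which matched 23962 of 23978 named probes; 1719 of 25697 probes had no symbol and 0 had several. The files name neither a build nor a slide or scan date, so batches of arrays were not tested. The members and lists were chosen with earlier results of these data known. Named genes are all members, up to 4 genes per list with the smallest p, 3 genes nearest to Egfr in pattern, and Atp2b4; Adam17, Lrig3 and the cell type markers were named outside this rule. Alternatives covered the background correction, normalization, filter, variance model, array weights, replicate block, threshold, chromosome centring, probe averaging and each array left out.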

Additional observations from a re-analysis of the deposited data

Results flagged for a closer look

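Of 58 groups of 4 arrays, over 29 member and named probes, 5 held a single array far from the other 3: its gap to the closest one, divided by the whole range, was above 0.829, the 95% limit of Dixon's test, which chance passes in about 1 of 20 groups. Among the members, Hbegf on rescued replicate 3 stood at 9.87, with the other rescued arrays at 10.90 to 10.92. Ereg at probe ILMN_1219065, not detected on any array, stood at 4.88 on rescued replicate 1, with the others at 4.62 to 4.66. Nrg1 stood at 9.93 on rescued replicate 3, with the others at 8.34 to 8.41. Rras, a GTPase of the relay, stood at 11.43 on the same array, with the others at 11.63 to 11.65. Ptpn1 stood at 7.36 on rescued replicate 2, with the others at 7.09 to 7.10.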

How the results depend on the processing

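All 4 Egfr probes, Errfi1 and Lrig1 kept their direction and passed the threshold under each of the alternatives that changed their fit. Median differences of whole chromosomes ran from -0.31 on chromosome 12 to 0.21 on chromosome 15. Centring each chromosome brought the Errfi1 difference from -0.97 to -0.78, where its chromosome 4 had a median of -0.19. Hbegf kept its direction, did not pass with the deposited values, and passed without background correction (0.56, limma adjusted p = 0.0244), with normexp without negative controls (0.59), an offset of 50 (0.586), median scaling (0.63), stricter detection filters (0.599 for both) and array weights (0.75). With each array left out it ran from 0.51 to 0.86, and passed only without rescued replicate 3. The cause of the other changes was not tested. Btc did not pass under any alternative (0.14 to 0.35). The 6 member probes called became 5 when a change of at least 1.5-fold was also required. The 4906 probes called became 3037 at an adjusted p under 0.01 and 1765 with at least 1.5-fold, and the 30 list genes called became 18 and 8. With each array left out these counts ran from 4067 to 4940 probes and from 23 to 29 list genes. Deviations of same-numbered arrays from their group means correlated from -0.081 to -0.0030, and no rescued array correlated best with its own number, so the numbers are not shown to pair the arrays. The replicate block left 6 member probes called (Hbegf adjusted p = 0.0556 in limma) with 26 list genes and 4206 probes, and it changed no member call. The dimmest Egfr probe rose by 0.67 without background correction, the lowest of its values. Signal near background limits Ereg and Tgfa.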
